A study of Mus musculus with 16 samples.

Results

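The genes described here are those whose level at intermediate FOXA2 lay above or below the middle of the FOXA2 extremes in mouse neural tube organoids. All 16 libraries came from the mouse embryonic stem cell line R1 carrying a FOXA2-Venus reporter. The organoids had received retinoic acid (RA) for 18 hours and were at day 4. Cells were divided by their FOXA2 into a negative, a low, a medium and a high gate, and each gate gave 4 libraries. For every gene, 1 model gave 4 gate means, and the mean of the low and medium gates (8 libraries) was compared with the mean of the negative and high gates (8 libraries) on the log2 scale. Of 35976 genes in the table, 13891 had enough counts to be tested, and all of them, in both directions, are the genes accounted for here. The libraries of a gate are numbered, but whether a number stands for a culture of its own is not stated. The p-values therefore measure how far these libraries scatter, which may be technical in part.

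FOXA2 is a forkhead transcription factor of the floor plate, the strip of ventral midline cells that secretes Sonic hedgehog. In the embryo, Hedgehog from below and BMP and WNT from above set the order of progenitor types, marked by genes such as Pax6, Pax7 and Msx1. Retinoic acid drives cells out of pluripotency and gives them a neural and posterior character. FOXA2 is also made in endoderm, so endoderm genes are of interest in any gate.

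BRB-seq, a bulk 3′ RNA-seq method with early barcoding and pooling, gave totals from 3268948 to 9961032 counts per library. Foxa2 defined the gates and so checks their labels. Foxa2 measured 2.90 ± 1.68 CPM from the 4 negative libraries, 11.9 ± 3.01 from the low, 51.8 ± 9.33 from the medium and 113 ± 18.1 from the high ones (mean ± SD, n = 4), and no library of 1 gate reached the range of the next. CPM is a library's counts scaled to a fixed total, and wherever 4 levels are given in a row they belong to the negative, low, medium and high gates in that order, as means or as mean ± SD over 4 libraries. Low 1 and medium 2 stood apart from their gates on the third principal component (29.6 and 36.5, against at most −1.85 and −15.0 for the others of each gate), and high 2 did so on the second (36.5, against at most 11.3). Mitochondrial genes took between 1.88% and 2.05% of the counts on average in each gate. Among markers of the tissue, Sox1, Sox2 and Olig2 were listed at 0 in all 16 libraries, while 17 of 19 listed neural progenitor genes were measured. Hoxa4, Hoxa5, Hoxb4, Hoxd4, Gdf7, Ferd3l, Noto and Msgn1 were also at 0 throughout. Whether these zeros reflect absent RNA or the way reads were counted was not tested. Because each library is a bulk sample, fewer cells of a type and less RNA per cell cannot be told apart in any value below.

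At intermediate FOXA2, 125 genes were higher than the middle of the ends (0.900% of the genes tested) and 123 were lower (0.885%), together 1.79%. Their median log2 difference was 0.70 for the higher and −0.66 for the lower genes. In most of them the 4 gate means did not form a ramp. The genes were chosen by this contrast, which favours such orders, so the counts below are descriptions. Both intermediate gate means lay above both end means in 83 of the 125 higher genes and below both in 76 of the 123 lower genes. In 27 and 24 genes only 1 intermediate gate lay beyond both ends. The remaining 15 higher and 23 lower genes lay between the ends, nearer to one of them on the log2 scale. The negative mean was above the high mean in 68 of the 125 higher and 102 of the 123 lower genes. A mean beyond an end can lie close to it, and far fewer genes passed a test against each end, as given below.

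**Figure D1:**
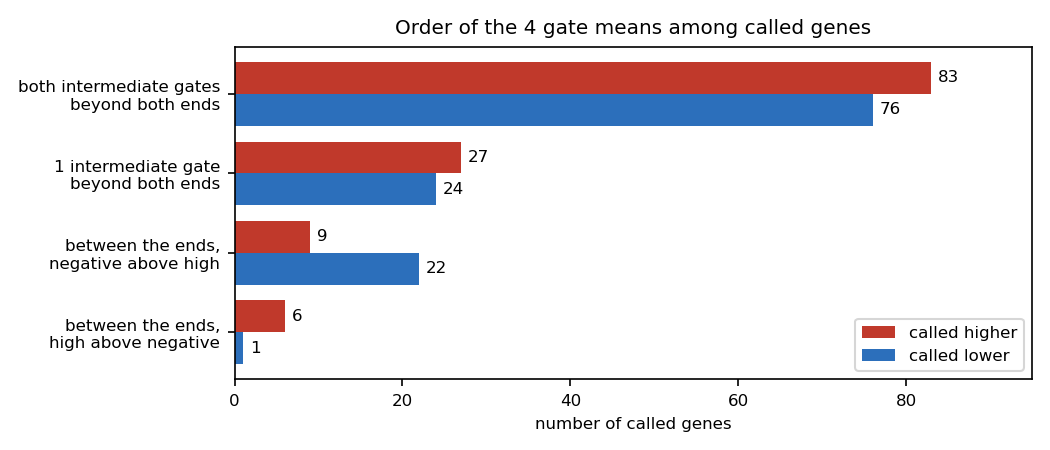
Number of called genes (horizontal axis) by the order of the 4 fitted gate means, for genes higher (red) and lower (blue) at intermediate FOXA2. The longest bars, 83 and 76 genes, are those in which the low and medium gates both lie outside the range of the ends.

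Calls came from edgeR's quasi-likelihood test with Benjamini-Hochberg adjustment at 0.05. Since the ends are averaged on the log2 scale, the sign was also taken on mean CPM, where 124 of 125 and 123 of 123 genes kept it. The exception was Arg1. Without low 1 and medium 2, 145 genes were higher and 156 lower.

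An end that differs strongly can carry the contrast alone, so each end was also tested by itself. Against the negative gate, the intermediate gates had 501 genes higher (3.61%) and 646 lower (4.65%), 8.26% in all. Against the high gate they had 297 higher (2.14%) and 379 lower (2.73%), 4.87% in all. Only 24 genes were called higher in the contrast and against each end (0.173%), and 15 were called lower in all (0.108%), together 0.281%. These comparisons share the intermediate libraries. In 25 tested genes (0.180%) the CPM of the 8 intermediate libraries did not overlap that of the 8 end libraries, among them 16 of the 125 and 7 of the 123 called genes.

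**Figure D2:**
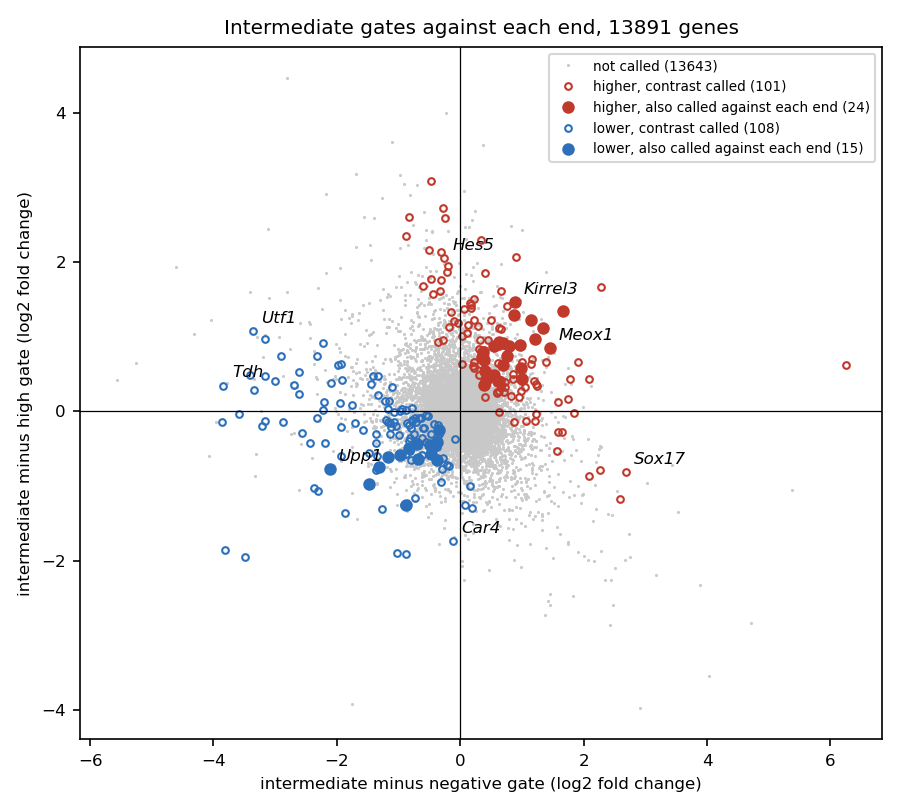
Log2 fold change of the intermediate gates against the negative gate (horizontal axis) and against the high gate (vertical axis) for every tested gene. Filled points, 24 red in the upper right and 15 blue in the lower left, are genes called against each end, while open points are the other called genes, many of which lie near one axis.

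The 24 genes that were highest at intermediate FOXA2 included transcription factors, adhesion molecules and signalling genes. Meox1, a homeobox factor best known from somites (chromosome 11, 101877510 to 101894374, minus strand, GRCm38), had the clearest rise. It measured 16.5, 15.6, 16.3 and 13.5 CPM in the negative libraries, 46.4, 40.0, 42.8 and 39.1 in the low, 44.6, 35.7, 50.2 and 40.2 in the medium and 23.7, 18.4, 29.2 and 21.9 in the high ones. Every low and medium library was above every negative and high library. The difference from the middle of the ends was 1.15 (SE 0.11, adjusted p = 4.56e-07) on the log2 scale, and it was 1.46 (SE 0.14, adjusted p = 3.48e-08) against the negative gate and 0.85 (SE 0.13, adjusted p = 0.00017) against the high gate. No other gene of the mesoderm list was called higher against the middle of the ends by edgeR. Of 7 measured members, Meox1 was higher and Tcf15, a bHLH factor of the paraxial mesoderm and the epiblast, was lower, at 17.9 ± 5.82, 3.85 ± 1.63, 5.48 ± 0.604 and 6.99 ± 4.00 CPM. Against the negative gate 2 of the 7 were higher and 3 lower, and against the high gate 2 were higher. DESeq2 called 2 of the list higher against the middle of the ends.

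Kirrel3, an immunoglobulin-family adhesion molecule of developing neurons (chromosome 9, 34485894 to 35036716, plus strand), measured 9.37, 12.5, 14.9 and 16.3 CPM in the negative libraries, 25.0, 28.5, 19.9 and 31.0 in the low, 19.4, 22.2, 25.9 and 26.0 in the medium and 9.95, 7.82, 8.76 and 9.11 in the high ones. The 8 intermediate libraries again did not overlap the 8 end libraries, and the difference was 1.18 (SE 0.13, adjusted p = 9.29e-06). Igfbpl1, an IGF-binding protein family member found in neural progenitors, measured 36.0, 35.7, 33.2 and 33.8 CPM in the negative libraries, 72.9, 72.7, 72.4 and 54.7 in the low, 84.4, 54.8, 50.9 and 81.9 in the medium and 34.5, 33.8, 39.0 and 39.8 in the high ones. Its groups did not overlap either, although the medium libraries fell into a lower and a higher pair (0.93, adjusted p = 1.28e-05).

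Zdhhc15, a palmitoyltransferase, measured 24.2, 28.7, 24.3 and 21.4 CPM in the negative libraries, 76.2, 34.0, 35.1 and 44.8 in the low, 37.7, 48.4, 30.5 and 36.0 in the medium and 26.9, 18.7, 20.9 and 26.7 in the high ones. No end library reached an intermediate one (0.83, adjusted p = 0.0019).

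A pair of further genes kept this pattern under all 22 alternatives but fell outside the rule for naming genes, and they are named after their values were seen. Pax9, a paired-box factor of pharyngeal endoderm and sclerotome, measured 3.39, 5.54, 3.63 and 2.45 CPM in the negative libraries, 8.71, 13.7, 8.31 and 8.54 in the low, 10.0, 10.7, 6.72 and 8.33 in the medium and 4.98, 5.80, 3.84 and 2.43 in the high ones. It had under 20 CPM in every gate, and still the groups did not overlap (1.22, adjusted p = 0.00104). The unnamed model 1700011H14Rik measured 9.23 ± 3.29, 28.9 ± 4.70, 29.8 ± 3.64 and 11.7 ± 4.14 CPM, the largest difference of the 24 (1.50, adjusted p = 4.66e-06).

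**Figure D3:**
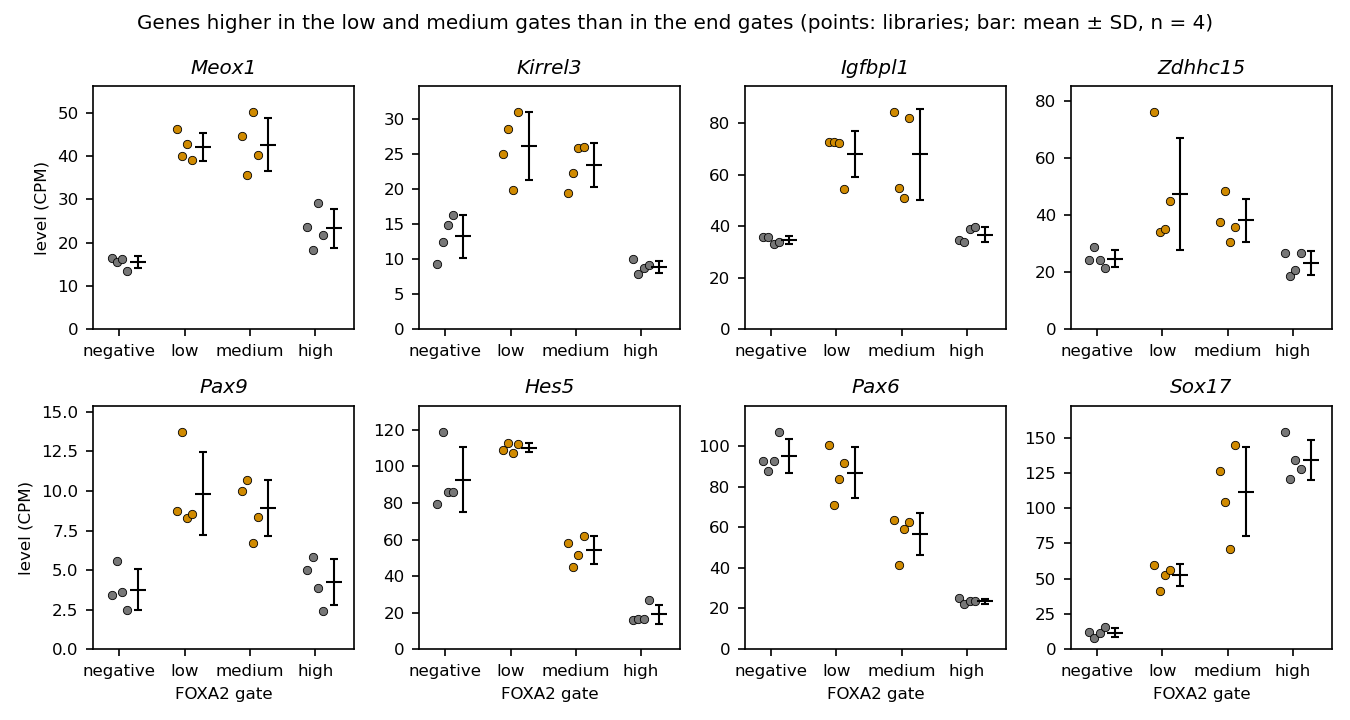
Levels in CPM (vertical axes, from 0) by gate, with 1 point per library and the mean ± SD beside them (n = 4), for 8 genes higher at intermediate FOXA2. In the first 5 genes both orange gates sit above both grey ends, whereas Hes5 and Pax6 fall from low to high and Sox17 rises from negative to high.

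A further 7 named genes of the 24 included adhesion and cytoskeletal genes. Cdh6, a cadherin of hindbrain and crest cells, measured 10.7 ± 0.843, 17.5 ± 2.36, 17.2 ± 1.34 and 9.26 ± 1.62 CPM, with no overlap (0.80, adjusted p = 0.00042). Ablim1, an actin-binding LIM protein, measured 16.1 ± 2.72, 33.6 ± 5.14, 30.2 ± 8.05 and 21.3 ± 1.41 CPM, also without overlap (0.78, adjusted p = 0.00055). Its call against the high gate was lost without high 1, high 2 or high 3 (adjusted p = 0.0605, 0.0716 and 0.09). Wls, the carrier that WNT proteins need for secretion, measured 87.1 ± 12.1, 119 ± 11.0, 103 ± 10.1 and 66.9 ± 4.42 CPM (0.54, adjusted p = 0.00042). The rise of Wls over the negative gate was small, 0.35 (SE 0.10, adjusted p = 0.0301), and was lost without negative 1, negative 2, negative 4 or low 2, with adjusted p up to 0.128.

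Glis3, a zinc-finger factor related to GLI proteins, measured 17.9 ± 6.15, 30.1 ± 6.94, 24.7 ± 3.76 and 14.5 ± 3.71 CPM, and negative 3 at 27.0 CPM stood inside the intermediate range. Map2k6, a kinase upstream of p38, measured 16.5 ± 1.37, 32.2 ± 1.63, 33.4 ± 5.81 and 24.2 ± 2.23 CPM. Spsb4, a substrate receptor of ubiquitin ligases, measured 54.0 ± 9.15, 87.2 ± 18.0, 87.6 ± 10.6 and 57.0 ± 9.98 CPM, and Scrn1, a secernin, 59.7 ± 6.95, 84.0 ± 15.7, 71.5 ± 1.96 and 44.3 ± 3.72 CPM. All 4 passed the contrast under every alternative, but against one end Map2k6 lost its call in 14 of 22 alternatives, Glis3 in 7, Scrn1 in 5 and Spsb4 in 1.

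A further 10 of the 24 were not taken by the naming rule and are listed for completeness, after their values were seen. Prom1, a membrane protein of neural and other progenitors, averaged 31.5, 50.3, 45.8 and 36.4 CPM from negative to high. Col2a1, the fibrillar collagen of cartilage and notochord, averaged 71.7, 99.3, 91.6 and 65.6 CPM, and Tenm4, a teneurin adhesion molecule, 98.9, 132, 127 and 80.5 CPM. Cbs, the first enzyme of transsulfuration, averaged 7.39, 13.5, 13.4 and 5.57 CPM, and Cited4, a CBP/p300-binding coactivator, 7.36, 16.0, 18.3 and 8.67 CPM. Lancl1, Fhod3, Sh3bgrl, Fam84b and Rftn1 completed the set, with differences of 0.37, 0.44, 0.52, 0.71 and 0.75. Prom1, Cbs and Sh3bgrl did not overlap between intermediate and end libraries. A call against one end or the other was lost for Fam84b in 13 of 22 alternatives, for Tenm4 in 9, for Sh3bgrl in 7, for Prom1 in 6, for Lancl1 and Cited4 in 4 each, for Rftn1 in 3, for Col2a1 and Cbs in 2 each and for Fhod3 in 1. Sh3bgrl also missed the threshold against the middle of the ends after thinning (adjusted p = 0.0925).

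The 15 genes that were lowest at intermediate FOXA2 included a uridine-cleaving enzyme, metallothionein 1, an inhibitor of NF-κB and the BMP and activin antagonist follistatin. Upp1, uridine phosphorylase, which splits uridine to release uracil (chromosome 11, 9118103 to 9136170, plus strand), measured 55.4, 65.1, 57.5 and 43.9 CPM in the negative libraries, 10.7, 13.9, 12.4 and 15.5 in the low, 10.2, 10.0, 15.3 and 14.4 in the medium and 27.2, 17.2, 22.8 and 19.7 in the high ones. The 8 intermediate libraries lay between 10.0 and 15.5 CPM, below all 8 end libraries. The difference from the middle of the ends was -1.44 (SE 0.13, adjusted p = 4.56e-07) on the log2 scale, with -2.11 against the negative and -0.77 against the high gate (adjusted p = 0.00283). Among the 15 it was the gene that stayed below both ends in all 22 alternatives, where its largest adjusted p against the high gate was 0.0446.

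Nfkbia, which encodes the inhibitor IκBα and is itself switched on by NF-κB (chromosome 12, 55489410 to 55492647, minus strand), measured 75.3, 63.9, 82.9 and 73.1 CPM in the negative libraries, 58.7, 54.8, 50.4 and 48.2 in the low, 64.8, 60.0, 56.4 and 64.5 in the medium and 95.9, 87.5, 85.5 and 91.1 in the high ones. The low gate was lowest and the high gate highest, and the groups overlapped only through negative 2, at 63.9 CPM. The difference was -0.51 (SE 0.08, adjusted p = 0.00042), and the smaller side, -0.37 (SE 0.09, adjusted p = 0.0122) against the negative gate, was lost without negative 3 (adjusted p = 0.0746) and after thinning every library to the smallest total (adjusted p = 0.0559).

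The 250 bases upstream of the annotated start are shown for the gene with the strongest dip, Upp1, for Nfkbia, and for Zdhhc15 as a gene of the opposite pattern (RefSeq, GRCm38.p6, 5′ to 3′ on the gene's strand). Capitals mark matches on either strand to a loose form of the NF-κB site, GGGA and CC with any 4 bases between them.
Upp1 chr11:9117853-9118102, plus strand: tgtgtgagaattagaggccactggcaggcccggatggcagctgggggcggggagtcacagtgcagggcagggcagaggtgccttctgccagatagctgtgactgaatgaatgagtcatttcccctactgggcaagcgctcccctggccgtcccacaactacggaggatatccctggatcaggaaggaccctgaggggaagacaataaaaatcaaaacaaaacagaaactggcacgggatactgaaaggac
Nfkbia chr12:55492648-55492897, minus strand: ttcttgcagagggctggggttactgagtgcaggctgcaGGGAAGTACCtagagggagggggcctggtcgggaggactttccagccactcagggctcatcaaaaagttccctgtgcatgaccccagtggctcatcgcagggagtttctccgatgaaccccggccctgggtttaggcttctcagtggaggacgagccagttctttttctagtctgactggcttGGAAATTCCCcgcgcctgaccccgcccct
Zdhhc15 chrX:104671065-104671314, minus strand: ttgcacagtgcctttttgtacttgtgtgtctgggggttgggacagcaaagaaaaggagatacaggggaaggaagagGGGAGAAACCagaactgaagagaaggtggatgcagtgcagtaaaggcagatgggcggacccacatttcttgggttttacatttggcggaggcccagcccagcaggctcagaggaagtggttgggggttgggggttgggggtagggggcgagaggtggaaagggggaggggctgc
The Nfkbia window held 2 matches, the Zdhhc15 window 1 and the Upp1 window none. Such matches are common, in 17.4% of 27025 RefSeq promoter windows and 22.6% of the 10467 of tested genes. They were in 28 of 87 windows of genes higher at intermediate FOXA2 (32.2%) and in 23 of 93 of genes lower there (24.7%). The forkhead core TGTTTAC, the type of site FOXA2 binds, was in 3.05% of all windows, 1.99% of those of tested genes, 2 of the 87 and 3 of the 93. The retinoic acid receptor half-site AGGTCA was in 13.8% of all windows, 10.4% of those of tested genes, 6 of the 87 and 11 of the 93. The GLI core TGGGTGGTC was in 0.215% of all windows and in none of the called genes' windows. All motifs were searched on both strands, and a match is a description of letters, not a bound site.

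Fst, follistatin, which binds and blocks activin and some BMPs (chromosome 13, 114452290 to 114458951, minus strand), measured 16.3, 31.2, 14.7 and 9.39 CPM in the negative libraries, 5.05, 11.8, 6.90 and 7.67 in the low, 6.08, 6.74, 2.93 and 4.94 in the medium and 10.9, 14.9, 14.5 and 9.41 in the high ones. Negative 2 was far above the others and low 2 reached the end range. Against the middle of the ends it was -1.23 (SE 0.22, adjusted p = 0.00244). Its dip against the high gate, -0.98 (SE 0.27, adjusted p = 0.0352), was lost when any of 8 single libraries was left out, among them high 2 or high 3 (adjusted p = 0.131 for each).

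Mt1, which binds zinc and copper, was abundant and measured 2348, 2362, 2504 and 2174 CPM in the negative libraries, 1809, 1966, 1845 and 1744 in the low, 1921, 2038, 1817 and 1719 in the medium and 2117, 2346, 2272 and 2091 in the high ones. All 8 intermediate libraries, at most 2038 CPM, were below all 8 end libraries, at least 2091 CPM, although the difference was small, -0.29 (SE 0.06, adjusted p = 0.00677). The call against the high gate had an adjusted p = 0.0461 and was lost in 15 of 22 alternatives. Its neighbour Mt2, taken up after its values were seen, was at 1342 ± 65.3, 929 ± 61.6, 938 ± 111 and 976 ± 53.3 CPM and was not called against the high gate (-0.06, adjusted p = 0.788). Both genes are related metallothioneins, and how reads that match both were counted is not given in the sources used here.

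**Figure D4:**
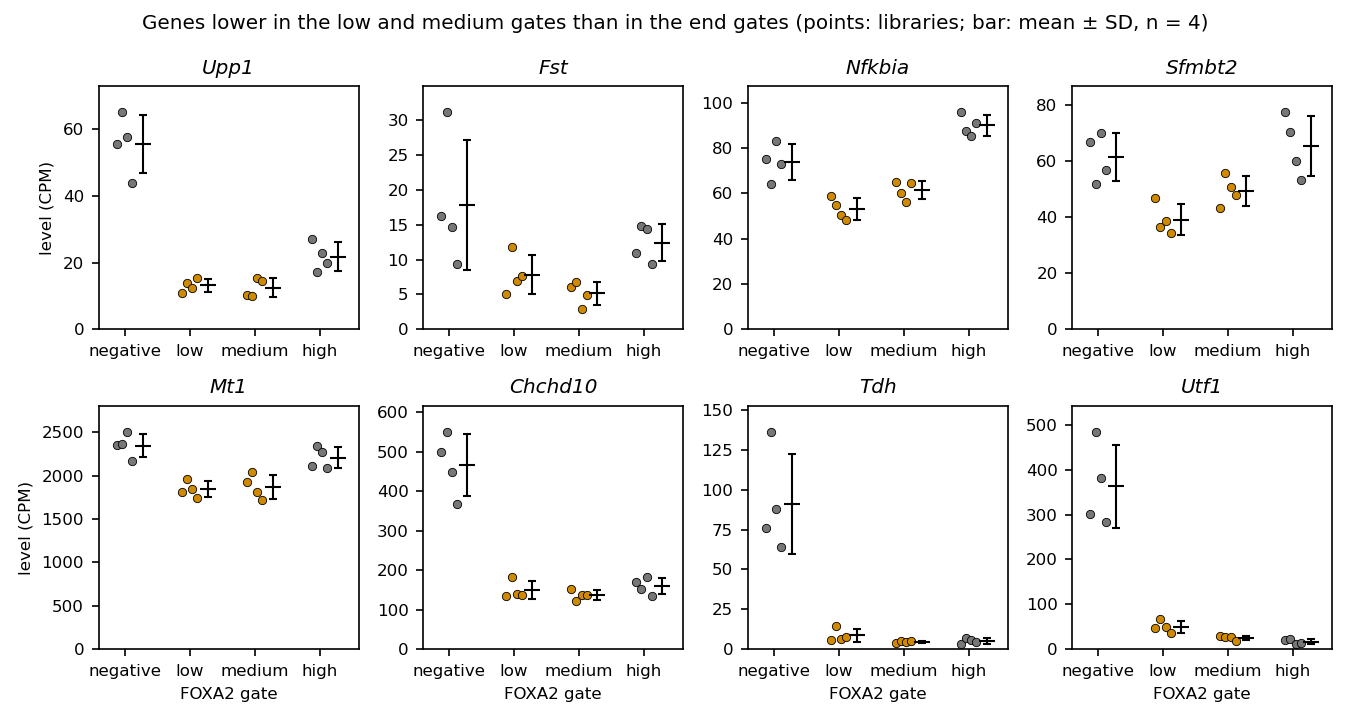
Levels in CPM (vertical axes, from 0) by gate, with 1 point per library and the mean ± SD beside them (n = 4), for 8 genes lower at intermediate FOXA2. Upp1, Fst, Nfkbia, Sfmbt2 and Mt1 dip between 2 higher ends, while Chchd10, Tdh and Utf1 are far higher in the negative gate than in the other gates.

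Genes of silencing and chromatin were also among the 15. Tdrd12, a tudor protein of the piRNA pathway, measured 23.0 ± 5.26, 7.21 ± 2.64, 11.7 ± 3.19 and 15.3 ± 3.97 CPM, and Mov10, an RNA helicase that restrains retrotransposons, 31.0 ± 7.75, 12.0 ± 2.93, 15.4 ± 3.59 and 20.7 ± 1.86 CPM. Sfmbt2, a Polycomb-group protein, measured 61.4 ± 8.61, 39.1 ± 5.46, 49.4 ± 5.25 and 65.5 ± 10.7 CPM (-0.53, adjusted p = 0.00295), and Chd3, a remodeller of the NuRD complex, 96.3 ± 12.0, 65.5 ± 8.90, 71.1 ± 11.6 and 93.0 ± 2.88 CPM (-0.47, adjusted p = 0.00379). For Sfmbt2 the dip held against both ends in every alternative except the one without negative 3 (adjusted p = 0.058 against the negative gate). Chd3 lost its call against the high gate without high 1 or high 3 (adjusted p = 0.0687 and 0.0516), while Tdrd12 and Mov10 lost theirs in 11 and 13 alternatives.

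Pdk1, a kinase that inhibits pyruvate dehydrogenase, measured 34.3, 45.5, 36.1 and 36.7 CPM in the negative libraries, 22.6, 26.2, 22.7 and 17.9 in the low, 26.5, 25.5, 22.1 and 23.9 in the medium and 33.3, 30.5, 33.2 and 28.8 in the high ones. Intermediate and end libraries did not overlap (-0.57, adjusted p = 0.00155), but the call against the high gate was lost in 9 of 22 alternatives. Atg13, part of the complex that starts autophagy, measured 52.6 ± 5.77, 37.8 ± 2.00, 43.5 ± 2.91 and 54.0 ± 5.19 CPM, without overlap. Plin3, a lipid-droplet coat protein, measured 65.5 ± 14.4, 44.3 ± 5.62, 52.5 ± 4.48 and 67.2 ± 6.53 CPM, and Phlda2, an imprinted growth regulator of the placenta, 128 ± 9.48, 66.1 ± 17.0, 78.2 ± 8.20 and 101 ± 31.6 CPM. Calls for Phlda2, Atg13 and Plin3 against an end were lost in 13, 6 and 4 alternatives. Tle6, Ddc and Gfpt2 were the other members, with differences of -1.07, -0.78 and -0.66; Ddc lost its call against the high gate in 17 alternatives and Gfpt2 in 10.

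The other called genes did not pass the test against both ends, although in many of them both intermediate gate means lay beyond both end means. Neural progenitor and dorsal genes formed a visible group among the higher ones, holding near the negative gate's level in the low gate and dropping by the high gate. Hes5, the Notch target that keeps neural progenitors from differentiating, measured 79.5, 119, 86.2 and 86.1 CPM in the negative libraries, 109, 113, 107 and 112 in the low, 58.3, 45.2, 51.4 and 62.0 in the medium and 16.1, 16.6, 16.4 and 26.7 in the high ones. The low libraries were within the negative range, the medium ones lower, and the high ones lowest. Hes5 differed from the high gate by 2.05 (SE 0.15, adjusted p = 2.61e-09) and from the negative gate by -0.26 (SE 0.12, adjusted p = 0.229).

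Of 17 measured pan-neural progenitor genes, 4 were higher at intermediate FOXA2 and none was lower, with a median of 0.34 beside 0.00 over all tested genes. Against the high gate 12 of the 17 were higher, and against the negative gate 4 were lower. Besides Hes5, they were Nrcam, an adhesion molecule of axons, at 25.6 ± 2.13, 30.3 ± 1.57, 17.8 ± 3.02 and 9.08 ± 2.45 CPM, Rfx4, a ciliary and neural tube factor, at 45.5 ± 10.8, 52.5 ± 4.72, 37.8 ± 3.06 and 19.8 ± 5.67 CPM, and Cdh2, N-cadherin, at 119 ± 10.8, 137 ± 7.10, 107 ± 16.3 and 77.9 ± 7.00 CPM. The call of Cdh2 (0.33, adjusted p = 0.0268) was lost in 6 alternatives, with adjusted p up to 0.0775.

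Of 15 measured intermediate and dorsal neural tube genes, 4 were higher and none lower, with a median of 0.56. Pax6, a paired-box factor of the middle and upper progenitor domains, measured 92.9, 88.0, 92.6 and 107 CPM in the negative libraries, 101, 71.2, 83.6 and 91.9 in the low, 63.6, 41.6, 59.1 and 62.6 in the medium and 25.2, 22.2, 23.5 and 23.7 in the high ones, falling from the negative and low gates to the high one without overlap between medium and high (0.56 against the middle of the ends, SE 0.10, adjusted p = 0.00127). Zic1, a zinc-finger factor of the dorsal neural tube, averaged 22.5, 21.9, 11.9 and 4.77 CPM from negative to high. Pax7, which marks dorsal progenitors, had another order, with 9.21, 6.41, 6.53 and 6.54 CPM in the negative libraries, 13.0, 11.1, 12.0 and 12.7 in the low, 9.81, 13.5, 9.83 and 9.32 in the medium and 3.48, 2.02, 2.61 and 7.59 in the high ones. All 8 intermediate libraries exceeded all 8 end libraries, and the difference was 1.14 (SE 0.19, adjusted p = 0.00113), but the rise over the negative gate did not pass (0.67, adjusted p = 0.0706). Msx3, a dorsal homeobox gene, averaged 14.5, 13.5, 7.87 and 2.35 CPM, and its call was lost in 8 alternatives, with adjusted p up to 0.109 (without high 1).

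Among higher genes with 1 intermediate gate beyond the ends, the 6 that the naming rule took (at least 20 CPM in the highest gate and the same sign in all 4 same-numbered sets of libraries) were Pla2g7, Sfrp5, Hes5, Hoxd3, Fndc5 and Boc. Sfrp5, a secreted WNT antagonist, averaged 41.1, 45.4, 24.2 and 7.38 CPM and Boc, a Hedgehog co-receptor, 44.7, 52.4, 25.0 and 10.9 CPM from negative to high. Hoxd3, a hindbrain and spinal cord Hox gene, averaged 20.5, 26.0, 12.3 and 4.55 CPM, and its call was lost in 7 alternatives, with adjusted p up to 0.102 (without medium 4). Pla2g7, a platelet-activating factor hydrolase, at 19.3 ± 4.56, 53.9 ± 6.47, 88.9 ± 19.0 and 70.3 ± 6.06 CPM, and Fndc5, the precursor of irisin, at 13.0 ± 3.43, 35.4 ± 13.5, 42.5 ± 3.40 and 35.7 ± 7.89 CPM, had the opposite order, with the negative gate lowest. Between the ends with the negative gate above the high one lay Zic1, Pax6, Folr1, Ccnd2 and Mest among the named genes. Folr1, a folate receptor, averaged 109, 83.6, 62.0 and 22.5 CPM, and Ccnd2, a D-type cyclin, 707, 687, 490.5 and 298 CPM. The imprinted gene Mest averaged 1281, 1229, 810.1 and 526 CPM. Without high 2 the adjusted p of Ccnd2 was 0.0508, and Mest lost its call without any of 5 single libraries (adjusted p up to 0.0702, without high 1).

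Among the named genes with both intermediate gates above both ends but no call against one of them, Crabp1 was by far the most abundant. This cytoplasmic binder of retinoic acid measured 5180, 7169, 4450 and 5073 CPM in the negative libraries, 6853, 7917, 6706 and 7847 in the low, 4902, 6681, 5451 and 5247 in the medium and 2284, 2655, 2684 and 3353 in the high ones. All low and medium libraries were above all high libraries, while they overlapped the negative ones, and the difference from the middle of the ends was 0.72 (SE 0.09, adjusted p = 4.66e-05). Cpne8, a copine, measured 14.9 ± 3.25, 32.1 ± 7.74, 39.0 ± 4.66 and 28.2 ± 4.26 CPM, Nefl, neurofilament light chain, 42.5 ± 9.45, 61.7 ± 16.4, 53.8 ± 6.98 and 29.4 ± 3.48 CPM, Palm3, a paralemmin, 34.4 ± 4.08, 44.2 ± 11.7, 39.6 ± 3.90 and 18.9 ± 1.25 CPM, and Arid3c, an ARID-domain factor, 13.1 ± 2.28, 21.7 ± 3.38, 19.9 ± 5.61 and 9.70 ± 4.45 CPM.

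Of 11 measured endoderm genes, 3 were higher at intermediate FOXA2 and none lower, with a median of −0.02. Against the negative gate 5 of the 11 were higher and 2 lower, and against the high gate 3 were lower. Sox17, an HMG-box factor of definitive endoderm, measured 12.0, 7.96, 11.4 and 15.3 CPM in the negative libraries, 59.4, 41.4, 52.4 and 55.8 in the low, 126, 104, 71.0 and 145 in the medium and 154, 121, 134 and 127 in the high ones. Its mean was higher in each gate from negative to high, and it was 0.94 (SE 0.13, adjusted p = 0.000161) above the middle of the ends, 2.69 above the negative gate and -0.81 relative to the high gate. Dab2, an endocytic adaptor abundant in extraembryonic endoderm, measured 13.9 ± 6.23, 29.9 ± 8.55, 31.3 ± 6.45 and 19.8 ± 1.92 CPM. In Dab2 the 8 intermediate libraries did not overlap the ends, but the call against the high gate was missed (0.63, adjusted p = 0.0701). The summed endoderm list ran from 1846 to 2271 CPM in negative libraries and from 1407 to 1741 CPM in all the others, although Sox17 was lowest in the negative gate. The untested members had few counts. Summed over each gate, Gata6 had 4, 9, 15 and 44 counts, Cubn 0, 6, 18 and 18, and Afp 2, 20, 11 and 29. Apoa1 had 12, 27, 27 and 15 counts, and Hnf4a at most 4 in a gate. The part of endoderm cells in these values was not tested.

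Arg1, Khdc3, Igfbp5 and Gsn also lay between the ends with the high gate on top. Arg1, arginase 1, averaged 4.89, 18.7, 48.0 and 67.5 CPM from negative to high, so that on the CPM scale the intermediate gates were below the middle of the ends. Igfbp5, an IGF-binding protein, averaged 57.1, 176, 333 and 439.7 CPM, Khdc3, a protein of early embryos and stem cells, 14.0, 45.7, 103 and 117 CPM, and Gsn, the actin-severing gelsolin, 7.49, 19.5, 25.7 and 32.3 CPM. Igfbp5 (0.61, adjusted p = 0.0225) lost its call in 6 alternatives, with adjusted p up to 0.0652.

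The lower genes were marked by pluripotency and epiblast genes, which were highest in the negative gate. Of 20 measured, 8 were lower at intermediate FOXA2 and none higher, with a median of −0.94. Tdh, threonine dehydrogenase, on which mouse embryonic stem cells depend, measured 76.1, 136, 87.8 and 64.3 CPM in the negative libraries, 5.94, 14.8, 6.34 and 7.67 in the low, 3.93, 5.26, 4.65 and 4.94 in the medium and 2.99, 6.81, 5.84 and 4.55 in the high ones. The high libraries overlapped the low and the medium ones, and all 3 gates were far below the negative libraries (-3.84 (SE 0.21, adjusted p = 3.33e-12) against the negative gate, 0.35 (SE 0.29, adjusted p = 0.635) against the high gate). Utf1, a chromatin factor of pluripotent cells, measured 363 ± 91.7, 49.9 ± 13.2, 24.9 ± 5.12 and 16.7 ± 5.25 CPM and kept falling to the high gate (1.08 (SE 0.20, adjusted p = 0.00138) for intermediate against high).

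L1td1, an RNA-binding protein of stem cells, averaged 115, 14.3, 8.26 and 7.91 CPM, Klf2, a naive-state factor, 21.6, 2.96, 1.50 and 1.83 CPM, Zfp42, also called Rex1, 62.7, 13.4, 7.79 and 7.14 CPM, and Dppa5a, 113, 30.0, 23.4 and 20.1 CPM from negative to high. Dppa5a has near-identical copies, so its counts are uncertain. Otx2 and Nodal, a homeobox gene and a ligand of the epiblast, were lower too, but averaged only 4.06, 0.447, 0.172 and 1.09 CPM and 6.25, 0.675, 0.653 and 0.687 CPM. Their calls were kept in 18 and 6 of the 22 alternatives and lost in 3 and 15, and the genes were not tested in the rest. Pou5f1 was below the filter, with 64 counts in the negative gate, 12 in the low, 2 in the medium and 0 in the high gate. The summed level of the list was 1577 to 2154 CPM in negative libraries, 937 to 1533 in low, 865 to 1431 in medium and 946 to 1081 in high ones. The part of such cells in the other genes that were high in the negative gate was not tested.

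Other named genes with this shape included Mylpf, Calcoco2, Pim2, Dnmt3l, Esyt3 and Klf2. Pim2, a survival kinase, averaged 70.7, 17.1, 11.5 and 15.2 CPM, and Dnmt3l, the cofactor of de novo DNA methylation, 24.2, 5.13, 3.01 and 3.39 CPM. Mylpf, a myosin light chain, averaged 66.9, 10.1, 5.68 and 3.64 CPM, Esyt3, an extended synaptotagmin, 23.4, 4.46, 2.32 and 3.51 CPM, and Calcoco2, an autophagy receptor, 26.5, 3.76, 2.26 and 1.92 CPM. Calcoco2 missed the threshold after thinning to equal depth (adjusted p = 0.0548). Chchd10, a mitochondrial protein of the cristae, measured 498, 550.1, 448 and 369 CPM in the negative libraries, 135, 183, 141 and 138 in the low, 152, 122, 137 and 137 in the medium and 169, 151, 182 and 134 in the high ones, with all 12 libraries of the other gates well below the negative ones and the low, medium and high ranges overlapping. Dlc1, a RhoGAP, averaged 34.9, 11.3, 12.2 and 13.7 CPM, and Tcea3, a transcription elongation factor, 131, 48.7, 53.6 and 68.2 CPM. Fam178b averaged 26.6, 11.9, 14.1 and 14.8 CPM and the noncoding RNA Platr14 33.6, 15.4, 15.4 and 18.1 CPM, and the call of Platr14 was lost in 4 alternatives (adjusted p up to 0.0564, without low 3).

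Car4, a membrane-bound carbonic anhydrase, was lower at intermediate FOXA2 than in the high gate, with no call against the negative gate. It measured 16.7 ± 9.20, 11.6 ± 2.96, 20.2 ± 1.56 and 51.0 ± 9.22 CPM. The high libraries were all above the rest, and the low gate was lowest, with -1.74 (SE 0.20, adjusted p = 1.7e-06) against the high gate and -0.11 against the negative gate.

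Across the 33 lists, 430 of 500 genes were tested, of which 33 were higher and 18 lower, and 9 lists had no call. The lists had been drawn up with earlier results of these data known. Their counts and medians are descriptions beside the background shares and the median of 0.00 over all genes.

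**Figure D5:**
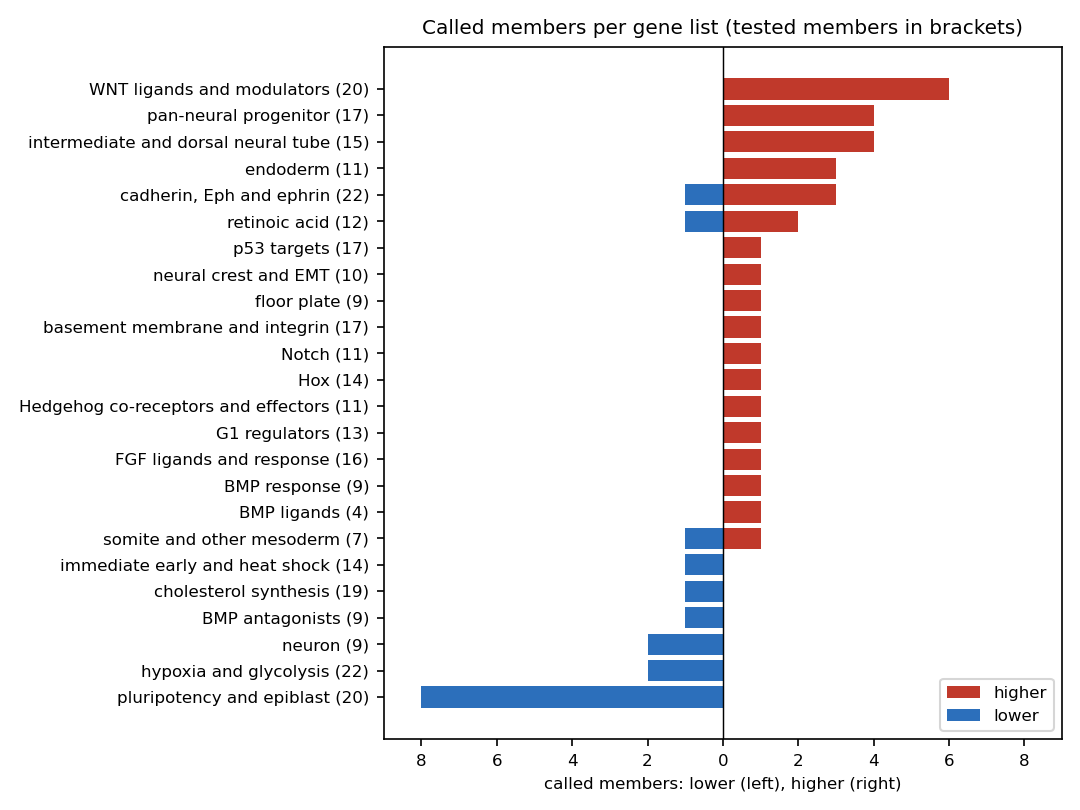
Called members (horizontal axis) of the 24 gene lists with at least 1 call, higher to the right in red and lower to the left in blue, with the number of tested members in brackets. WNT ligands and modulators have 6 higher members, and pluripotency and epiblast genes 8 lower ones.

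In the BMP pathway, whose ligands bind serine/threonine kinase receptors and act through SMADs, calls were few. Of 4 measured ligands, Bmp7 was higher, and of 9 measured response genes Msx1. Bmp7, made by roof plate and surface ectoderm in the embryo, measured 29.2, 25.3, 34.7 and 38.1 CPM in the negative libraries, 59.2, 62.5, 58.9 and 60.0 in the low, 68.5, 82.2, 65.0 and 79.5 in the medium and 66.8, 88.8, 67.6 and 68.6 in the high ones. The negative libraries were lowest, all low libraries lay below all medium and high ones, and the medium and high ranges overlapped (0.47 (SE 0.09, adjusted p = 0.00571), with -0.13 (adjusted p = 0.667) against the high gate). Msx1, a homeobox target of BMP, measured 62.4, 46.6, 71.9 and 66.5 CPM in the negative libraries, 129, 92.3, 111 and 119 in the low, 125, 99.2, 96.0 and 125 in the medium and 95.5, 59.3, 88.7 and 86.5 in the high ones. Its intermediate libraries were above the negative ones and overlapped the high ones (0.65 (SE 0.11, adjusted p = 0.000928), with 0.44 (adjusted p = 0.0572) against the high gate).

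Bmp4 had a higher mean in each gate from negative to high, at 5.01 ± 0.952, 11.2 ± 3.77, 26.7 ± 2.79 and 33.3 ± 8.14 CPM, and missed the contrast (0.42, adjusted p = 0.225). Id3, an immediate BMP target, averaged 459, 542, 484 and 411 CPM (0.24, adjusted p = 0.308), and Bambi, a decoy receptor induced by BMP, 7.29, 12.9, 12.4 and 12.3 CPM (0.41, adjusted p = 0.212). None of 9 receptors and SMADs was called by edgeR or DESeq2, and 1 was under an unadjusted p of 0.05. Of 9 measured antagonists, Fst was called, as described.

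Hedgehog targets had no call among 4 measured by edgeR or DESeq2, with 3 under an unadjusted p of 0.05 and a median of −0.42. Ptch1, the receptor that Hedgehog signalling induces, measured 28.6 ± 3.61, 33.1 ± 8.47, 66.3 ± 21.8 and 117 ± 19.8 CPM (-0.30, adjusted p = 0.371), and without medium 2, which read 98.8 CPM against at most 57.6 for the others of its gate, its difference was −0.42 (adjusted p = 0.043). Gli1, another direct target, averaged 14.0, 11.6, 13.8 and 19.8 CPM (-0.39, adjusted p = 0.302). Shh itself had 7, 3, 16 and 26 counts in the 4 gates and was not tested. Boc was the called gene among 11 co-receptors and effectors.

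Floor plate genes gave 1 call among 9 measured, Slit1, an axon repellent, at 13.2 ± 1.67, 22.4 ± 6.52, 24.4 ± 3.58 and 20.2 ± 1.68 CPM, which was lost in 12 alternatives (adjusted p up to 0.0954, after thinning). Ntn1, netrin 1, was at 11.8 ± 1.63, 10.5 ± 1.38, 15.3 ± 4.11 and 28.1 ± 5.56 CPM and just missed the threshold (-0.51, adjusted p = 0.0545), passing it in 6 alternatives, among them the one without medium 2 (adjusted p = 0.0277). Foxa1, the paralogue of Foxa2, averaged 0.299, 1.86, 6.86 and 9.21 CPM (1.09, adjusted p = 0.127). Foxa2 itself had a difference of 0.49 (SE 0.17, adjusted p = 0.177), which was 0.71 without negative 3 (adjusted p = 0.0209). Progenitor factors of the ventral domains, 5 measured, and notochord and simple epithelium genes, 7 measured, had no call by edgeR or DESeq2, with 1 under an unadjusted p of 0.05 in each.

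WNT ligands and modulators held the most higher calls of any list, 6 of 20, with none lower and a median of 0.47. Apart from Wls and Sfrp5, they were Sfrp2, a secreted WNT antagonist, at 109.9 ± 18.4, 116 ± 10.9, 65.9 ± 11.1 and 28.5 ± 2.63 CPM, Frzb, another, at 11.1 ± 3.43, 20.2 ± 1.25, 23.3 ± 5.08 and 18.1 ± 4.12 CPM, Wnt1, a dorsal midline ligand, averaging 6.66, 7.24, 3.11 and 0.522 CPM, and Rspo1, which strengthens WNT signals, averaging 5.53, 8.58, 6.97 and 3.31 CPM. These did not share 1 profile. Sfrp2, Sfrp5 and Wnt1 fell toward the high gate, and Frzb was lowest in the negative gate. After thinning to equal depth 3 of the 6 remained called, with Frzb, Wnt1 and Rspo1 at adjusted p = 0.0791, 0.219 and 0.154, and Wnt1 and Rspo1 also lost their calls in 5 and 4 other alternatives. WNT response genes had no call among 10 measured by edgeR and 1 lower by DESeq2, and 6 were under an unadjusted p of 0.05.

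Of 12 measured retinoic acid genes, Crabp1 and Rdh10 were higher and Rarg lower. Rdh10, which makes the retinoic acid precursor retinal, averaged 3.62, 6.74, 10.3 and 6.16 CPM, and Rarg, the gamma receptor, measured 33.4 ± 6.59, 16.6 ± 2.68, 21.1 ± 4.36 and 24.6 ± 5.44 CPM. Both missed the threshold after thinning (adjusted p = 0.239 and 0.0538). Lfng, which tunes Notch receptors by adding sugars, was the call among 11 Notch genes, at 17.1, 19.0, 11.3 and 3.96 CPM. Fgfr3 was the call among 16 FGF genes, at 3.68, 6.61, 4.92 and 2.65 CPM, without overlap between intermediate and end libraries, but lost in 8 alternatives (adjusted p up to 0.227, after thinning). In the crest list, 1 of 10 was called, Tfap2b at 11.9, 12.9, 7.37 and 1.45 CPM, lost in 13 alternatives (adjusted p up to 0.126, without high 1). Hoxd3 was the call among 14 Hox genes. Hoxb1 went the other way and was called lower in 6 alternatives, among them DESeq2 (-0.39, adjusted p = 0.0243), but not in the main test.

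Adhesion genes included 3 higher cadherins among 22 cadherin, Eph and ephrin genes, Cdh2, Cdh6 and Cdh11, the last a mesenchymal cadherin at 2.46 ± 0.214, 5.71 ± 1.16, 7.45 ± 0.666 and 4.05 ± 1.52 CPM. The receptor Epha1 was lower, averaging 2.13, 1.09, 1.22 and 4.38 CPM, with a call lost without negative 1, low 1, low 3 or medium 4 (adjusted p up to 0.0689). Nid2, a basement membrane linker, was the call among 17 genes of its list, at 38.9, 52.7, 51.3 and 40.8 CPM, and was lost in 14 alternatives (adjusted p up to 0.172, after thinning).

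In the neuronal list, 2 of 9 genes were lower and none higher. Tubb3, the neuronal tubulin, measured 41.5 ± 2.82, 22.7 ± 3.17, 19.5 ± 3.13 and 21.0 ± 3.27 CPM, and Ina, a neuronal intermediate filament, 60.3 ± 11.0, 29.8 ± 3.38, 24.4 ± 6.14 and 24.4 ± 4.45 CPM. Both were highest in the negative gate, and each missed the threshold after thinning (adjusted p = 0.0582 and 0.0729), as Ina did without any of 6 single libraries. Neurofilament genes outside the list were higher, among them Nefl, given above (0.70, adjusted p = 0.00156), and Nefm, named after its values were seen, which averaged 19.6, 20.9, 15.7 and 7.71 CPM (0.55, adjusted p = 0.0233) and lost its call in 5 alternatives (adjusted p up to 0.0602).

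Of 22 hypoxia and glycolysis genes, Pdk1 and Bnip3 were lower, with a median of −0.18 and 10 under an unadjusted p of 0.05. Against the negative gate 8 of the 22 were lower and against the high gate 2. Bnip3, a mitophagy receptor, measured 19.0 ± 9.27, 10.7 ± 1.90, 9.91 ± 1.91 and 15.3 ± 4.50 CPM, and its call was lost in 9 alternatives (adjusted p up to 0.114, without high 2). Ldha, lactate dehydrogenase A, measured 1100, 1909, 1322 and 1096 CPM in the negative libraries, 675, 1256, 849.7 and 716 in the low, 817, 791, 877 and 743 in the medium and 813, 1237, 932 and 803 in the high ones (-0.43, adjusted p = 0.0825), with negative 2, low 2 and high 2 each the highest of its gate. Without low 2 Ldha was at −0.54 (adjusted p = 0.00745), and with the replicate number as a block at −0.42 (adjusted p = 0.00429), and the list had 5 lower genes in either. Ldha also passed without the filter on low counts (adjusted p = 2.61e-05), without negative 4 (adjusted p = 0.0492) and with DESeq2 (adjusted p = 0.0412). Aldoa, aldolase A, averaged 1377, 974, 1009 and 1125 CPM (-0.33, adjusted p = 0.0568), and passed in 9 alternatives. Ldha and Aldoa have pseudogene copies, so their counts are uncertain.

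Hspb1, a small heat shock protein, was the call among 14 immediate early and heat shock genes, at 147 ± 31.7, 37.9 ± 6.02, 26.5 ± 8.30 and 17.0 ± 3.81 CPM. Fdps was the call among 19 cholesterol synthesis genes, at 311, 217, 245 and 259 CPM, and was lost in 13 alternatives (adjusted p up to 0.123, without high 2). Against the negative gate 12 of the 19 were lower, and 7 were under an unadjusted p of 0.05 against the middle of the ends. Perp, a p53 target of the cell membrane, was the call among 17 p53 targets, at 18.8 ± 1.55, 28.8 ± 4.57, 33.2 ± 6.07 and 23.6 ± 3.84 CPM. Ccnd2 was the call among 13 regulators of G1. Replication (19 genes), mitosis (19), apoptosis (17) and amino acid stress (15) had none by edgeR, with 1, 2, 1 and 5 genes under an unadjusted p of 0.05, and DESeq2 called 1 amino acid stress gene lower. Against the negative gate 5 of the 15 amino acid stress genes were lower.

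The intermediate gates were also compared with each other. Between medium and low, 67 of all tested genes were higher in medium (0.482%) and 31 lower (0.223%), 0.705% in all. Among the 125 genes higher at intermediate FOXA2, 6 were higher in medium than low and 10 were lower, and among the 123 lower genes 1 was higher and 1 lower. Sox17, Khdc3, Arg1, Igfbp5 and Pla2g7 were higher in medium, by 1.09 (SE 0.18, adjusted p = 0.00119) for Sox17 and 1.35 (SE 0.20, adjusted p = 0.000503) for Arg1. Hes5, Boc, Sfrp2, Pax6, Nrcam, Zic1, Ccnd2 and Mest were lower in medium, by -1.02 (SE 0.15, adjusted p = 0.000294) for Hes5 and -1.07 (SE 0.18, adjusted p = 0.00204) for Boc. Utf1 was the lower gene that fell further from low to medium (adjusted p = 0.0195).

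None of the 39 genes beyond both ends was called between medium and low. For Meox1 the difference was 0.02 (SE 0.14, adjusted p = 0.997), for Kirrel3 -0.15 (SE 0.17, adjusted p = 0.973) and for Upp1 -0.06 (SE 0.19, adjusted p = 0.997). A missed threshold does not show equal levels.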

How the data were processed

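RNA was measured by BRB-seq in 16 libraries, 4 for each FOXA2 gate. The authors deposited raw counts, whole numbers per gene and library without normalization, for 35976 genes. Per the submitters' processing notes, cutadapt 1.18, STARsolo 2.7.9a, DESeq2 1.42.0 and the build GRCm38 were used. Not given in the sources used here are the annotation, the strand setting and any collapsing of molecular identifiers. Table columns carry the gate and number of 1 sample each, and 26763 of the symbols were found in GENCODE M21, which supplied coordinates.

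The analysis used edgeR 4.0.16 under R 4.3.3. The expression filter kept 13891 genes, which held nearly all counts of each library (lowest 99.67%). TMM scaling and a quasi-likelihood model with 4 gate means were fitted to all 16 libraries. The contrasts were the mean of low and medium minus the mean of negative and high, minus negative alone and minus high alone, and medium minus low. Each was adjusted by Benjamini-Hochberg over all tested genes at 0.05, and every adjusted p in the text comes from this edgeR test unless DESeq2 is named. An SE is the fitted log2 difference over the root of F. Levels in the text are TMM-scaled CPM. A count was worth 0.1 to 0.306 CPM, and a count of 0 allows up to 3 counts, which is 0.918 CPM in the shallowest library and covers counting error only. Libraries of 1 gate differed beyond sampling noise (smallest chi-square per degree of freedom 4.31 over 24 pairs), so none was counted as a duplicate. The fitting was tested on simulated data.

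The genes, the 33 lists and the comparisons were chosen with earlier results of these data known. Named genes had the same sign in all 4 same-numbered sets and at least 20 CPM in the highest gate, and were taken by size, 10 in each direction beyond both ends and 6 in each remaining shape, with unnamed gene models left out. Up to 4 members of each list by p, and Foxa2, Bmp4, Bmp7, Shh and Ptch1, were added. Genes named outside this rule, chosen after their values were seen, were 1700011H14Rik, Pax9, Mt1, Mt2, Nefm, Fgb, Cp, the other genes beyond both ends and some further list members. Some genes that the rule takes are not reported here. The 22 alternatives were RLE scaling, DESeq2, a replicate block, no filter on low counts, thinning to the smallest total, leaving out low 1 and medium 2 together, and leaving out each library. Each intermediate gate alone against the ends was also fitted.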

Additional observations from a re-analysis of the deposited data

Results flagged for a closer look

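In each of 496 sets of 4 libraries (124 genes in 4 gates), the highest or lowest library was checked for its gap to the others, relative to the range of the set. It lay apart in 35 sets, where chance alone would give about 24.8, 1 in 20.

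Low 2 was above its gate for Pax9 (13.7 CPM), Chchd10 (183), Car4 (16.0), Hoxb1 (75.6) and Tfap2b (24.3). It was below its gate for Rftn1 (9.69 CPM) and Fgb (0.352 CPM, the others at least 3.76). Low 4 was below for Igfbpl1 (54.7 CPM) and above for Rfx4 (59.5).

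Among negative libraries, negative 2 was above the others for Scrn1 (70.1 CPM), Dab2 (23.2), Hes5 (119), Pim2 (112) and Sfrp2 (137). Negative 1 was above for Mest (1338 CPM), Pax7 (9.21) and Fgb (0.162 CPM, 1 count, the others at 0). Negative 3 was above for Glis3 (27.0 CPM) and negative 4 for Ddc (19.8).

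In the medium gate, medium 2 was above for Ablim1 (42.1 CPM), Pax7 (13.5), Ptch1 (98.8) and Prom1 (50.8). Medium 1 was above for Cdh11 (8.44 CPM) and below for Tfap2b (4.12), and medium 4 was below for Bmp4 (22.6).

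Among high libraries, high 2 was above for L1td1 (15.9 CPM) and Bmp7 (88.8), and below for Fndc5 (24.0) and Slit1 (17.7). High 4 was above for Hes5 (26.7 CPM), Igfbp5 (492), Klf2 (3.34) and Ntn1 (36.4), and below for Mylpf (1.52).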

How the results depend on the processing

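Of the 125 higher and 123 lower calls, 75 and 63 held in all 22 alternatives. Of the genes called against each end, 7 of 24 higher (among them Meox1, Kirrel3, Igfbpl1, Zdhhc15, Pax9 and 1700011H14Rik) and 1 of 15 lower (Upp1) did so. Some of these held narrowly. The largest adjusted p over the alternatives was 0.0498 for Zdhhc15 against the negative gate. Against the high gate it was 0.0489 for Pax9 and 0.0446 for Upp1. No named gene changed direction. Over the named genes and alternatives, 2534 values stayed on the same side of the threshold, 153 calls were lost and 39 were gained, and the cause was not tested.

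With RLE scaling 125 genes were higher and 127 lower. DESeq2 called 179 and 182 in the contrast, and 105 higher and 53 lower in medium than low. Without the filter on low counts, the numbers were 286 and 191, with 48 higher than both ends and 115 and 84 between medium and low. Thinning left 99 and 88, with 17 and 9 genes beyond both ends. Without low 1 and medium 2, there were 30 higher and 25 lower than both ends, 476 and 591 against the high gate, and 43 higher in medium than low. Against the middle of the ends, the low gate alone gave 162 and 108 genes, and the medium gate alone 87 and 52.

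Leaving out 1 library gave 95 to 147 higher and 89 to 156 lower genes. Beyond both ends it gave 17 to 30 higher and 6 to 21 lower genes, the fewest lower ones without high 1. Against the negative gate the ranges were 350 to 532 and 439 to 667, against the high gate 190 to 414 and 234 to 509, and between medium and low 35 to 75 and 16 to 33.

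Same-numbered libraries of different gates were weakly alike. Of 24 such pairs, 6 had deviations correlated above 0.1. The median correlation was 0.03, beside -0.01 for pairs with different numbers, and 8 of 16 libraries correlated best with their own number. Partial pairing may therefore be present, and the main model left it out. With the replicate number as a block, 162 genes were higher and 156 lower, 33 and 20 beyond both ends, and 83 and 38 between medium and low.

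Depth limits the genes under about 1 CPM, such as Otx2 and Nodal, where 1 count in the shallowest library is 0.306 CPM.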

Other observations

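Fgb, the beta chain of fibrinogen, a plasma protein made by liver and visceral endoderm, was named after its values were seen. It was listed at 0 in negative 2, 3 and 4 and had 1 count (0.162 CPM) in negative 1. It measured 4.04, 0.352, 4.08 and 3.76 CPM in the low libraries, 5.69, 5.26, 7.07 and 5.93 in the medium and 2.49, 0.757, 3.69 and 4.25 in the high ones. Medium libraries were highest, low 2 stood near 0, and the difference from the high gate was 0.62 (adjusted p = 0.546). Cp, ceruloplasmin, a copper-binding plasma protein, was also named after its values were seen. It measured 3.23, 8.66, 4.36 and 3.78 CPM in the negative libraries, 11.5, 16.7, 8.87 and 10.7 in the low, 4.12, 10.9, 7.24 and 6.64 in the medium and 3.81, 2.27, 1.84 and 0.303 in the high ones, with the low gate highest. It was 1.49 (SE 0.27, adjusted p = 0.00246) above the middle of the ends, 0.91 (SE 0.32, adjusted p = 0.0838) against the negative gate and 2.07 (SE 0.37, adjusted p = 0.000851) against the high gate.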
